A study of Mus musculus with 7 samples.

Results

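Adhesion G protein-coupled receptors (GPCRs) are a family of cell-surface receptors, and 9 of their genes were followed here in haematopoietic stem and progenitor cells (HSPCs) of the mouse, a mixed population of blood-forming cells, kept in culture. The genes are Adgra2, Adgra3, Adgre1, Adgre4, Adgre5, Adgrg1, Adgrg3, Adgrl1 and Adgrl4. They were taken by symbol from a table of 34305 gene rows, and all 9 were found. The other 20 adhesion GPCR genes of the table were used for comparison. The RNA-seq libraries came from 3 groups: 3 libraries of HSPCs overexpressing MN1, 3 of HSPCs overexpressing MN1pQdel (written MN1-∆pQ in the series title) and 1 of untransduced HSPCs (noTD). MN1, an oncoprotein of acute myeloid leukaemia, works as a co-regulator of transcription, and MN1pQdel is MN1 without its polyglutamine stretch. Per the labels, cells of every group were grown in IMDM with foetal bovine serum and the cytokines IL-3, IL-6 and SCF (stem cell factor), and RNA was taken after 7 to 9 days of culture, and these cytokines were shared by all groups. Transduced cells had been sorted before that culture. The source label of the noTD library also reads as transduced, while its title and the series text call it untransduced, and it was treated as untransduced. The series text calls the transduced samples independent; the sources used here do not say whether they came from separate animals, so each p-value reflects the spread among these samples only. Nor do they give the species of the constructs or the strain and age of the animals.

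An adhesion GPCR carries a long extracellular region with adhesion domains, joined to a membrane-spanning signalling part through a domain at which many members cut themselves. The freed end of the membrane part can act as a built-in agonist, and many members signal through G proteins. In blood, the E receptors (Adgre1, Adgre4, Adgre5) are known from macrophages, eosinophils and other mature leukocytes, Adgrg3 from granulocytes, and Adgrg1 from haematopoietic stem cells. Adgra2 and Adgrl4 are best known from blood vessel endothelium, and Adgrl1 is a latrophilin, a receptor studied mainly at synapses.

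Library totals ran from 38210660 to 67728658 estimated counts. Mn1 counts can hold reads of both the construct and the endogenous gene. What share of the construct reads they hold is unknown, as the construct species and the alignment index are not given. They stood at 283 to 313 CPM (counts scaled to library size, with TMM factors) in MN1. In MN1pQdel they stood at 401 to 731 CPM and in noTD at 34.5 CPM. Between MN1 and MN1pQdel the log2 fold change of Mn1 was -1.05 (SE 0.23, adjusted p = 0.0282 by edgeR's quasi-likelihood test). It passed in 1 of 6 leave-one-out fits, the one without MN1pQdel replicate 2 at -1.25, and lay between -1.25 and -0.89 in all 6, with edgeR adjusted p up to 0.104. Mn1 dose and the loss of the polyglutamine stretch cannot be told apart in this comparison. MN1pQdel replicate 2 stood apart from the other MN1pQdel libraries: its 9 eosinophil markers summed to 234 CPM, against 3405 and 3665 CPM in replicates 1 and 3. Its 14 mast cell and basophil markers summed to 4447 CPM, against 18997 and 23521 CPM. In MN1 against MN1pQdel, 901 of 14808 tested genes passed as higher and 1643 as lower, or 2022 and 2523 with the replicate number as a block. With library totals in place of TMM the split was 1847 higher and 1140 lower, and the median log2 fold change over all genes was 0.19 in place of -0.01.

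Adgrg1 and Adgrg3 lie side by side in that order on chromosome 8, both on the plus strand. On GRCm38 (GENCODE M21), Adgrg1 spans chr8:94974751-95014217 and Adgrg3 chr8:95017692-95045250. Adgrg3 starts 3474 bases after Adgrg1 ends, and 0 other protein-coding genes lie between them. RefSeq gives 2 promoter entries for Adgrg1 and 1 for Adgrg3. Their sequences are shown because these direct neighbours differed between the groups in opposite directions. Each is the 250 bases before a RefSeq start on GRCm38.p6, on the plus strand and 5′ to 3′. Both Adgrg1 windows lie inside the GENCODE span of Adgrg1 given above, so their RefSeq starts lie downstream of its first base. Capitals mark matches, on either strand, to 6 short motifs of transcription factors active in blood, whose letters and background follow the sequences.
Adgrg1, chr8:94976859-94977108: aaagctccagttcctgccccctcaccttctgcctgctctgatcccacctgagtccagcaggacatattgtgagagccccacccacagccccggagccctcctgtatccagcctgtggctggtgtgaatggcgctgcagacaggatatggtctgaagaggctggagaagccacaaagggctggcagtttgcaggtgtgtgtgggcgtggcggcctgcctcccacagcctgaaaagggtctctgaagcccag
Adgrg1, chr8:94984149-94984398: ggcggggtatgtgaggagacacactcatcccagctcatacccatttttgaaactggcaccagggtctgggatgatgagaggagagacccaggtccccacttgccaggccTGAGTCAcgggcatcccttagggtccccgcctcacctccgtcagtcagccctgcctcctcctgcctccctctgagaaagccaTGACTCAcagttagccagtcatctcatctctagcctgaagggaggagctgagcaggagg
Adgrg3, chr8:95017442-95017691: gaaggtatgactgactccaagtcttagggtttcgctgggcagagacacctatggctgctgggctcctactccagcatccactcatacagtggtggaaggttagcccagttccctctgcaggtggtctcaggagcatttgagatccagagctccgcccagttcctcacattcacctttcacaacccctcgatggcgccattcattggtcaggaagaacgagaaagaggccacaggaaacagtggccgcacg

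The second Adgrg1 window held 2 AP-1 matches, which start 141 and 59 bases before the RefSeq start of that window's entry. The first Adgrg1 window and the Adgrg3 window held none of the 6 motifs, which says only that these letters are not in these windows. The background is the share of 32851 RefSeq promoter windows of the same length that hold the letters. AP-1, the Fos and Jun factors, was searched as TGANTCA, present in 6.75% of windows. For GATA factors the letters were AGATAA, present in 9.99%. PU.1, a myeloid and lymphoid master factor, was searched as GAGGAAG, present in 10.6%. RUNX factors were searched as TGTGGT, present in 14%. For MEIS, the HOX cofactors, the letters were TGACAG, present in 15.9%. The C/EBP factors of granulocytes were searched as TTNNGCAA, present in 9.56%.

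The Adgrl4 and Adgre4 windows are shown because these genes were almost silent in some libraries of one transduced group and clearly counted in the other. Adgrl4 spans chr3:151437887-151545086 and Adgre4 spans chr17:55749984-55853662, both on the plus strand, and capitals mark the same motifs.
Adgrl4, chr3:151437632-151437881: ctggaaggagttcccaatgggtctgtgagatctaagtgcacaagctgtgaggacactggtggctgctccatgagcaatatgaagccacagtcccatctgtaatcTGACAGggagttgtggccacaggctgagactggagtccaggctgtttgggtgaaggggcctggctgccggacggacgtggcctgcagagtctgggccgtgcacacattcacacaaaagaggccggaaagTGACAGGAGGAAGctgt
Adgre4, chr17:55749734-55749983: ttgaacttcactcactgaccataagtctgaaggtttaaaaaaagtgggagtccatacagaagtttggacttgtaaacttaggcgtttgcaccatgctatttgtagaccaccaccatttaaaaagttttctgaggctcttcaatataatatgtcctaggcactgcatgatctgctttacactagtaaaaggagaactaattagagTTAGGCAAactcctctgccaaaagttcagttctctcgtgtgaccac

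The Adgrl4 window held MEIS matches that start 146 and 17 bases before the gene start and a PU.1 match at 11 bases, directly after the nearer MEIS match. The Adgre4 window held 1 C/EBP match, 46 bases before the gene start. Of the other members with a RefSeq promoter entry, Adgrl1 held 1 PU.1 match and Adgra3 held none. A match is a run of letters and no measure of binding. In all, 6 of 9 members matched an entry.

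The main comparison sets MN1 against MN1pQdel, which lacks the polyglutamine stretch. The 2 groups also differed in Mn1 level, as given above, so a difference between them cannot be assigned to the stretch alone. Adgra2, Adgra3 and Adgrg1 were higher in MN1, and Adgre1, Adgre4, Adgre5 and Adgrg3 were lower. Adgrl1 and Adgrl4 did not pass the test. Of 9 members tested, 7 passed at an adjusted p under 0.05 (edgeR's quasi-likelihood test, adjusted by Benjamini-Hochberg over all tested genes), against 17.2% of all tested genes. The 3 higher members stand beside 6.08% of all genes called higher, and the 4 lower members beside 11.1% called lower. The CPM ranges of MN1 and MN1pQdel did not overlap for 8 of 9 tested members, 4 higher and 4 lower, against 43.4% of all tested genes (21.3% higher and 22.1% lower). The median log2 fold change of the 9 members was -0.38, with values from -3.96 to 5.75.

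**Figure D1:**
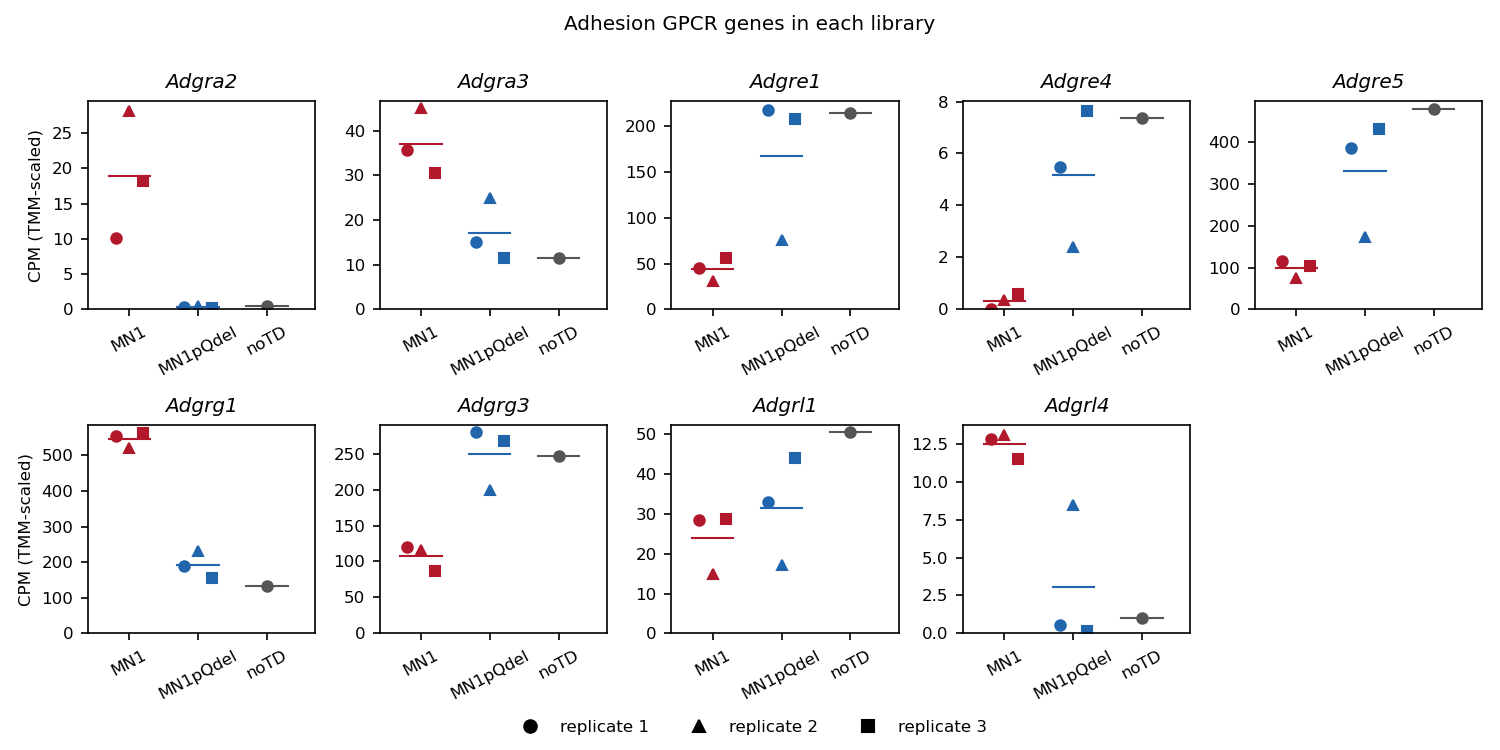
TMM-scaled CPM (vertical axis, linear, one scale per panel) of each of the 9 adhesion GPCR genes in the 3 MN1, 3 MN1pQdel and 1 noTD libraries; marker shapes give the replicate number and horizontal lines the group mean. Adgrg1 lay at 522 to 564 CPM in MN1 and at 155 to 231 CPM in MN1pQdel, and MN1pQdel replicate 2 was the MN1pQdel library nearest to the MN1 mean in each tested gene.

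The same 7 members passed under 6 other analyses. The share of all genes called was 17.0% with RLE size factors, 20.2% with library totals, 10.2% with no filter, 19.2% with a filter at 1 CPM, 30.0% with DESeq2 and 30.7% with the replicate block. The calls depended on single libraries to different degrees. Without MN1pQdel replicate 2, 8 members passed, Adgrl4 being added, and 41.9% of all genes did. Without both replicate 2 libraries the count was also 8, and 34.8% of all genes passed. Without MN1 replicate 1 the count was 4 (4.14% of all genes), without MN1 replicate 2 it was 3 (4.47%) and without MN1 replicate 3 it was 3 (3.34%). Without MN1pQdel replicate 1 it was 2 (3.36%) and without MN1pQdel replicate 3 it was 3 (6.19%). Adgra2 and Adgrg1 passed in all 6 of the single leave-outs and Adgrg3 in 5.

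Adgrg1, also known as GPR56, is a receptor for collagen III and transglutaminase 2 that marks haematopoietic stem cells and stem-cell-like leukaemic cells. Its level was 556, 522 and 564 CPM in MN1 replicates 1 to 3. It was 191, 231 and 155 CPM in MN1pQdel replicates 1 to 3 and 133 CPM in noTD. All MN1 libraries lay more than 2-fold above every other library, and the noTD library lay below all MN1pQdel libraries. The means were 547 ± 22.2 CPM in MN1 and 192 ± 38.3 CPM in MN1pQdel (SD, n = 3 each). Adgrg1 was 2.85-fold higher in MN1, a log2 fold change of 1.51 (SE 0.16, 95% interval 1.12 to 1.89, edgeR quasi-likelihood adjusted p = 0.00526). Leaving out single libraries moved this value between 1.38 and 1.68, and Adgrg1 passed in 6 of 6 fits.

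Adgrg3, or GPR97, is a receptor found on granulocytes and its gene starts just downstream of Adgrg1. In MN1 replicates 1 to 3 it had 121, 116 and 86.1 CPM. It stood at 280, 199 and 268 CPM in MN1pQdel replicates 1 to 3 and at 246 CPM in noTD. Every MN1 library was below every MN1pQdel library, and noTD fell inside the MN1pQdel range. The means were 108 ± 18.7 CPM and 249 ± 43.8 CPM (SD, n = 3 each). Adgrg3 was 2.31-fold lower in MN1, a log2 fold change of -1.21 (SE 0.19, 95% interval -1.66 to -0.77, edgeR quasi-likelihood adjusted p = 0.0113). The call was lost without MN1pQdel replicate 1, at -1.11 and an edgeR adjusted p of 0.0511.

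**Figure D2:**
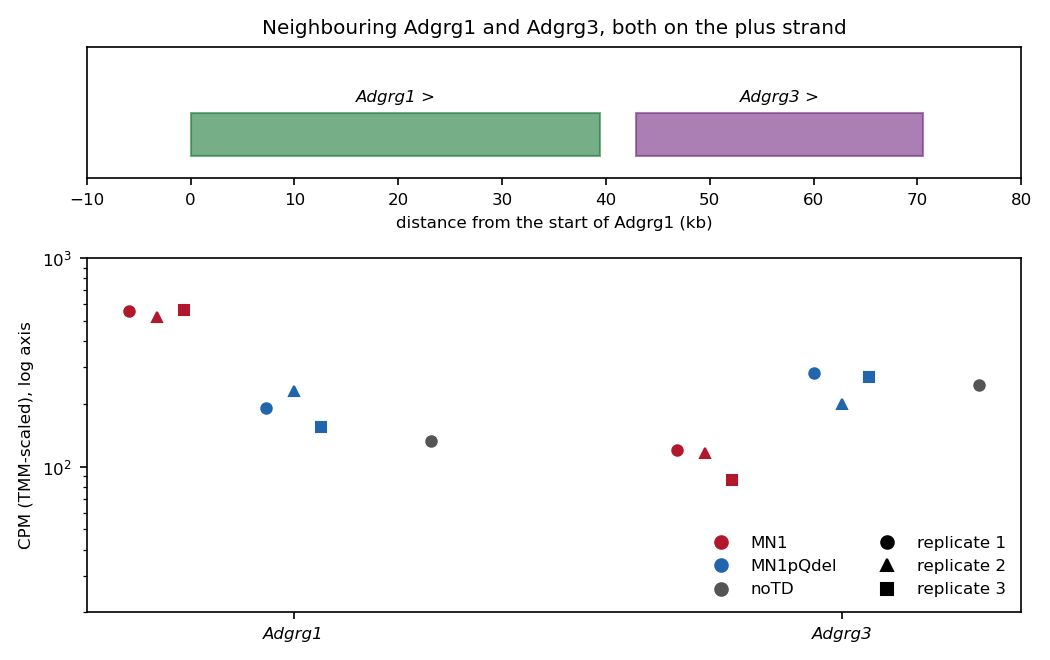
Upper panel: positions of Adgrg1 and Adgrg3 as distance in kilobases from the start of Adgrg1, drawn to scale, both on the plus strand. Lower panel: TMM-scaled CPM on a log axis in each library of the 3 groups. Adgrg1 is higher and Adgrg3 lower in all MN1 libraries (3 of 3) than in any MN1pQdel library.

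The E receptors were lower in MN1 as a group: Adgre1, Adgre4 and Adgre5 all passed the test in that direction. Adgre5, or CD97, binds CD55 and is found on most activated leukocytes. It stood at 116, 75.2 and 105 CPM in MN1. It stood at 386, 174 and 433 CPM in MN1pQdel replicates 1 to 3 and at 479 CPM in noTD. MN1pQdel replicate 2 lay between the MN1 libraries and the other MN1pQdel libraries, and noTD was the highest library of all. The means were 98.6 ± 21.1 and 331 ± 138 CPM (SD, n = 3 each), a 3.35-fold lower level in MN1 and a log2 fold change of -1.75 (SE 0.35, 95% interval -2.58 to -0.91, edgeR quasi-likelihood adjusted p = 0.0233). Adgre5 (chr8:83723251-83741326, minus strand) shares 895 exon bases with Ddx39 on the opposite strand, whose own log2 fold change was 0.24 with an edgeR adjusted p of 0.245. The sources used here name no strand setting, so reads of the shared bases cannot be told apart.

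Adgre1 encodes F4/80, the classical marker of mouse macrophages, which eosinophils also carry (chr17:57358691-57483527, plus strand). It stood at 45.4, 31.3 and 55.7 CPM in MN1. It stood at 218, 75.4 and 208 CPM in MN1pQdel replicates 1 to 3 and at 214 CPM in noTD. The noTD library lay between the upper MN1pQdel libraries, and MN1pQdel replicate 2 was again the lowest of its group. The means were 44.1 ± 12.2 and 167 ± 79.6 CPM (SD, n = 3 each), and the log2 fold change was -1.92 (SE 0.42, 95% interval -2.93 to -0.92, edgeR quasi-likelihood adjusted p = 0.0287).

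Adgre4, a small F4/80-related receptor of myeloid cells, was the least counted of the E receptors. It had 1, 16 and 28 counts in the MN1 libraries, or 0.0243, 0.369 and 0.584 CPM. It had 337, 118 and 306 counts in MN1pQdel, or 5.49, 2.40 and 7.64 CPM, and 262 counts in noTD, or 7.38 CPM. The MN1 libraries thus lay near the detection floor, while noTD fell inside the MN1pQdel range. The log2 fold change was -3.96 (SE 0.87, 95% interval -6.02 to -1.90, edgeR quasi-likelihood adjusted p = 0.0283), the largest fall among the tested members. Adgre4 reached the minimum of the filter on low counts, 0.232 CPM, in 2 of 3 MN1 and 3 of 3 MN1pQdel libraries, and Adgra2 and Adgrl4 in 3 of 3 MN1 and 2 of 3 MN1pQdel libraries. The other 6 tested members reached it in every library.

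The calls of these receptors rested on few libraries. Adgre1 and Adgre5 passed in 1 of 6 leave-one-out fits, the one without MN1pQdel replicate 2, where they stood at -2.25 and -2.03. In the other 5 fits Adgre1 lay between -2.12 and -1.67 and Adgre5 between -1.87 and -1.50, with edgeR adjusted p up to 0.104 and 0.0901. Adgre4 passed in 2 of 6 fits, without MN1 replicate 1 at -3.42 and without MN1pQdel replicate 2 at -4.27, and the other 4 fits gave edgeR adjusted p up to 0.105. All 3 kept their call with the replicate number as a block.

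Markers of mature myeloid cells were read beside the E receptors and Adgrg3, against 6.08% of all tested genes called higher in MN1 and 11.1% called lower. All 15 neutrophil markers tested were lower in MN1, with S100a9, S100a8 and Ngp the most abundant, and they summed to 4353 to 8078 CPM in MN1, 27407 to 37986 CPM in MN1pQdel and 40583 CPM in noTD. The count was 15 under the block too, and 15 when both replicate 2 libraries were left out. Of 9 eosinophil markers tested, 7 were lower and 0 higher, and Prg2, Epx and Ear6 were the most abundant. Their sums were 13.3 to 21.3 CPM in MN1, 234 to 3665 CPM in MN1pQdel and 3905 CPM in noTD, and 9 were lower with the block and without the pair.

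The other myeloid lists were less uniform. Of 15 monocyte and macrophage markers, 6 were lower and 0 higher, 7 and 0 under the block, and 7 and 3 with both replicate 2 libraries left out. Of the 3 most abundant, Ly6c2 and Spi1 were lower, while Ccr2 had a log2 fold change of 0.43 (edgeR adjusted p = 0.385). The list summed to 734 to 814 CPM in MN1, 1164 to 1519 CPM in MN1pQdel and 1710 CPM in noTD. Of 14 mast cell and basophil markers, 8 were lower and 0 higher, or 13 and 0 with the block and also without the pair. The 3 most abundant were not among the 8: Cpa3 had a log2 fold change of -1.70 (edgeR adjusted p = 0.101), Il1rl1 -2.04 (edgeR adjusted p = 0.0798) and Cma1 -3.86 (edgeR adjusted p = 0.0739). The list summed to 2067 to 4951 CPM in MN1, 4447 to 23521 CPM in MN1pQdel and 20199 CPM in noTD. All 14 of these and all 9 eosinophil markers had counts in every library.

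Markers of other blood lineages were called in few cases. Of 10 megakaryocyte markers, with Itga2b, Pf4 and Vwf the most abundant, 0 passed, against 4 lower with the block and without the pair, and they summed to 248 to 759 CPM in MN1 and 422 to 1171 CPM in MN1pQdel. Of 10 erythroid markers, with Tfrc, Gata1 and Hbb-bt the most abundant, 0 were higher and 1 lower, or 1 and 3 with the block and 3 and 4 without the pair, at 399 to 442 CPM in MN1 and 365 to 468 CPM in MN1pQdel. Of 6 lymphoid markers tested, with Il7r, Cd79b and Rag1 the most abundant, 2 were higher and 0 lower, or 3 and 2 without the pair. The list summed to 16.3 to 32.4 CPM in MN1 and 10.1 to 15.6 CPM in MN1pQdel. Rag1 was higher, at 5.00 CPM in MN1 and 0.132 CPM in MN1pQdel (log2 fold change 5.24, edgeR adjusted p = 0.0287). Ebf1 was also higher, at 2.06 and 0.246 CPM (log2 fold change 3.06, edgeR adjusted p = 0.00554). In these bulk libraries fewer cells of a type and less RNA per cell cannot be told apart, and the part of these markers in the members' differences was not tested.

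Of the A receptors, Adgra2 and Adgra3 were higher in MN1, and Adgra1 was too low to test. Adgra2, or GPR124, is a co-receptor for Wnt7 ligands that is needed for brain vessel growth (chr8:27085583-27123436, plus strand). It stood at 10.2, 28.1 and 18.3 CPM in MN1, from 418, 1221 and 876 counts. It stood at 0.309, 0.548 and 0.175 CPM in MN1pQdel, from 19, 27 and 7 counts, and at 0.422 CPM in noTD, from 15 counts. The MN1 libraries differed among themselves and all lay far above every other library, and noTD fell inside the MN1pQdel range. Adgra2 was 53.8-fold higher in MN1, a log2 fold change of 5.75 (SE 0.57, 95% interval 4.39 to 7.11, edgeR quasi-likelihood adjusted p = 0.0052), and it passed in each of 6 leave-one-out fits, at 5.35 to 6.24. It shares 73 exon bases with Brf2 on the opposite strand, whose log2 fold change was 0.28 with an edgeR adjusted p of 0.36.

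Adgra3, or GPR125, an orphan receptor related to Adgra2 (chr5:49959956-50059006, minus strand), differed less. It stood at 35.7, 45.0 and 30.6 CPM in MN1. It stood at 15.0, 24.9 and 11.6 CPM in MN1pQdel and at 11.5 CPM in noTD. The lowest MN1 library lay above the highest MN1pQdel library, which was replicate 2. The means were 37.1 ± 7.28 and 17.2 ± 6.90 CPM (SD, n = 3 each), and the log2 fold change was 1.11 (SE 0.30, 95% interval 0.39 to 1.83, edgeR quasi-likelihood adjusted p = 0.0495). The adjusted p lay just inside the threshold, and Adgra3 passed in 1 of 6 leave-one-out fits, the one without MN1pQdel replicate 2 at 1.50. The other 5 fits gave 0.90 to 1.24, with edgeR adjusted p up to 0.169.

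Of the latrophilin-type members, Adgrl4, or ELTD1, an endothelial receptor, was even in MN1 and uneven in MN1pQdel. It stood at 12.8, 13.1 and 11.5 CPM in MN1. It stood at 0.538, 8.43 and 0.150 CPM in MN1pQdel replicates 1 to 3, from 33, 415 and 6 counts, and at 1.01 CPM in noTD, from 36 counts. All MN1 libraries lay above all MN1pQdel libraries, but MN1pQdel replicate 2 lay much nearer to MN1 than to its own group. The log2 fold change was 2.03 (SE 1.21, 95% interval -0.84 to 4.90, edgeR quasi-likelihood adjusted p = 0.256). Without MN1pQdel replicate 2 it was 5.11 with an edgeR adjusted p of 0.00113, and without MN1 and MN1pQdel replicate 2 it was 5.10 with an edgeR adjusted p of 0.00525. With the replicate number as a block it was 3.61 with an edgeR adjusted p of 0.0902. Leaving out any of the other 5 libraries gave 1.48 to 2.09.

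Adgrl1, latrophilin 1, the receptor for the toxin of the black widow spider (chr8:83900105-83941954, plus strand), did not pass the test. It stood at 28.6, 14.8 and 28.7 CPM in MN1. It stood at 32.8, 17.1 and 44.0 CPM in MN1pQdel and at 50.5 CPM in noTD. The groups overlapped, and replicate 2 was the lowest library in each. The log2 fold change was -0.38 (SE 0.39, 95% interval -1.31 to 0.55, edgeR quasi-likelihood adjusted p = 0.502), and it passed in 0 of 6 leave-one-out fits. Adgrl1 shares 1107 exon bases with Gm10644 on the opposite strand.

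Because Adgra2 and Adgrl4 are known from endothelium, endothelial markers were read beside them. Robo4 had 0 counts in every library, Cdh5 at most 3, Cldn5 at most 5 and Emcn at most 9. Of the 10 markers, 6 were tested, and 1 was higher and 0 lower in MN1, or 3 and 1 without the replicate 2 pair. The one that passed was Plvap, at 1.47 CPM in MN1 and 0.655 CPM in MN1pQdel, a log2 fold change of 1.17 (edgeR adjusted p = 0.0354). Tie1, at 2.54 CPM in MN1pQdel, had a log2 fold change of 1.28 (edgeR adjusted p = 0.159), and Tek had -0.22 (edgeR adjusted p = 0.793). The summed level was 164 to 198 CPM in MN1, 174 to 336 CPM in MN1pQdel and 305 CPM in noTD, of which most was Pecam1, a gene that myeloid cells also express. The part of these markers in the Adgra2 and Adgrl4 values was not tested.

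Among stromal and pericyte markers, Dcn, Lum, Cspg4 and Pdgfra had at most 2, 4, 3 and 7 counts in any library. Of 6 tested, 1 was higher and 2 lower, or 2 and 2 without the replicate 2 pair. Pdgfrb, a receptor of pericytes, was higher, at 11.3 CPM in MN1 and 5.04 CPM in MN1pQdel (log2 fold change 1.17, edgeR adjusted p = 0.0414). Col1a1, a chain of collagen I, was lower, at 1.39 and 7.46 CPM (log2 fold change -2.43, edgeR adjusted p = 0.0116), as was Rgs5, at 0.198 and 2.69 CPM (log2 fold change -3.75, edgeR adjusted p = 0.00526). Thy1, the most abundant, had a log2 fold change of 0.12 (edgeR adjusted p = 0.689).

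Beside the rise of Adgrg1, 6 of 15 stem and progenitor markers were higher in MN1 and 0 lower, against 6.08% and 11.1% of all genes. With the block the counts were 7 and 1, and without the replicate 2 pair 8 and 1. Of the 3 most abundant, Cd34 was higher, at a log2 fold change of 1.36 (edgeR adjusted p = 0.0106), while Gata2 had -0.96 (edgeR adjusted p = 0.148) and Kit -0.78 (edgeR adjusted p = 0.244). The list summed to 1573 to 2136 CPM in MN1, 1025 to 2368 CPM in MN1pQdel and 2283 CPM in noTD, and its part in the Adgrg1 difference was not tested.

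Levels of different members were compared as CPM per kilobase of the longest protein-coding transcript. In MN1, Adgrg1 was the most abundant member at 151 ± 6.13 CPM per kilobase. Adgrg3 followed at 44.1 ± 7.66 and Adgre5 at 32.9 ± 7.02 CPM per kilobase. Within each MN1 library Adgrg3 was the higher, though only narrowly in replicate 3, at 35.3 and 35.0 CPM per kilobase. Adgre1 stood at 13.6 ± 3.78, Adgra3 at 8.28 ± 1.62 and Adgra2 at 3.27 ± 1.56 CPM per kilobase. Adgra2, Adgrl4 (3.03 ± 0.207) and Adgrl1 (2.94 ± 0.974) did not differ from each other beyond their spread, and Adgre4 was last at 0.0932 CPM per kilobase.

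In MN1pQdel the order was different. Adgre5 led at 110 ± 45.9 CPM per kilobase, with Adgrg3 at 102 ± 18.0, which did not differ from it beyond the spread. Adgrg1 at 53.2 ± 10.6 and Adgre1 at 51.6 ± 24.6 CPM per kilobase were likewise not separated. Adgrl1 and Adgra3 both stood at 3.83 CPM per kilobase, followed by Adgre4 at 1.48, Adgrl4 at 0.740 and Adgra2 at 0.0598. In noTD the first 4 were Adgre5 at 160, Adgrg3 at 101, Adgre1 at 66.2 and Adgrg1 at 36.9 CPM per kilobase. With all exons of a gene as its length, Adgrg1 stayed first in MN1, moved from rank 3 to rank 4 in MN1pQdel, and Adgre5 passed Adgrg3 for second place in MN1. Adgrg3 then stood at 36.0 CPM per kilobase in MN1pQdel in place of 102, behind Adgre1 at 51.6, and Adgre5 was first in every MN1pQdel library and in noTD.

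Adgrg1 made up 56.5%, 58.5% and 60.0% of the summed length-scaled level of the 9 genes in MN1 replicates 1 to 3. Its share was 14.1%, 27.0% and 11.5% in MN1pQdel replicates 1 to 3 and 9.83% in noTD. The E receptor Adgre5 held 10.2% to 14.2% in MN1, 24.5% to 38.8% in MN1pQdel and 42.6% in noTD. The length-scaled sum itself was 247 to 272 in MN1, 373 and 371 in MN1pQdel replicates 1 and 3, 237 in MN1pQdel replicate 2 and 375 CPM per kilobase in noTD.

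**Figure D3:**
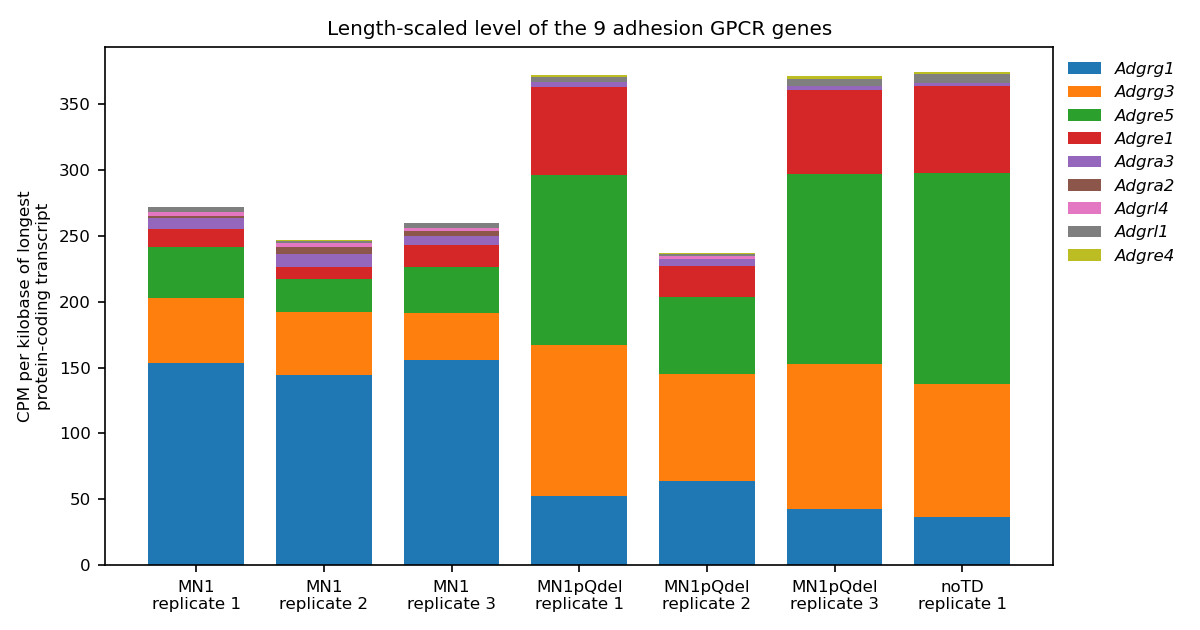
Stacked bars of CPM per kilobase of the longest protein-coding transcript (vertical axis, from 0) for the 9 adhesion GPCR genes in each of the 7 libraries. Adgrg1 fills 56.5% to 60.0% of each MN1 bar and 9.83% of the noTD bar, and MN1pQdel replicate 2 has the shortest bar at 237.

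The untransduced library shows what MN1 and MN1pQdel cells look like beside cells with no construct, as values with no test, since it is a single library. The series holds no empty-vector group, so the construct, the transduction and the sorting cannot be told apart in these differences. The mean log2 CPM of MN1 lay more than 2-fold from noTD in 9 of 9 tested members, 4 higher and 5 lower, against 25.8% of all tested genes (10.1% higher, 15.7% lower). The mean of MN1pQdel lay past 2-fold in 0 of 9, against 4.80% of all tested genes (1.42% higher, 3.38% lower). Both differences use the same noTD library.

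By member, the log2 differences of MN1 from noTD were 5.22 for Adgra2, 3.56 for Adgrl4, 2.04 for Adgrg1 and 1.66 for Adgra3. Those of MN1pQdel from noTD were -0.38, -0.10, 0.51 and 0.50 for the same genes. Among the lower members, MN1 stood at -4.83 for Adgre4, -2.32 for Adgre1, -2.30 for Adgre5, -1.21 for Adgrg3 and -1.13 for Adgrl1, and MN1pQdel at -0.66, -0.51, -0.64, 0.00 and -0.79. The means of Adgre1, Adgre4, Adgre5 and Adgrl1 thus lay below noTD in both transduced groups. The noTD level lay inside the MN1pQdel range for Adgra2, Adgre1, Adgre4, Adgrg3 and Adgrl4, below it for Adgra3 and Adgrg1 and above it for Adgre5 and Adgrl1.

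Across the 9 tested members, noTD was nearer to the MN1pQdel mean than to the MN1 mean in 9, which also held for 82.9% of all tested genes. MN1pQdel replicate 2 was the MN1pQdel library nearest to the MN1 mean in 9 of 9 members, against 62.8% of all tested genes. The count past 2-fold from noTD was 1 for MN1pQdel without its replicate 2 and 3 without its replicate 3. For MN1 it was 8 without replicate 2.

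**Figure D4:**
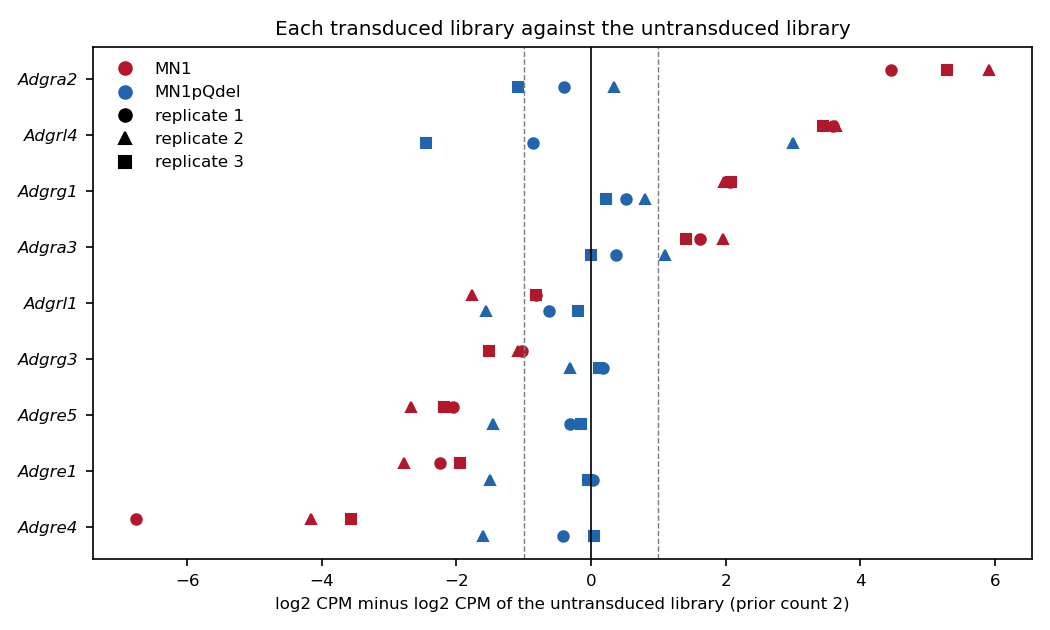
Log2 CPM of each transduced library minus log2 CPM of the noTD library (horizontal axis, prior count of 2) for the 9 tested members; red points are MN1 and blue points MN1pQdel, marker shapes give the replicate number, and dashed lines mark a 2-fold difference. MN1 points lie on the right for Adgra2, Adgrl4, Adgrg1 and Adgra3. The MN1pQdel replicate 2 triangle is the MN1pQdel point nearest to the mean of the MN1 points in each row. For Adgrl1 it lies below that mean and the other MN1pQdel points above it.

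The rest of the adhesion GPCR family held 20 genes, of which 12 were tested. Of these, 5 were higher and 1 lower in MN1, against 6.08% and 11.1% of all tested genes. Under the block the counts were 5 and 2, beside 30.7% of all genes called in either direction. When both replicate 2 libraries were left out they were 6 and 2, beside 34.8%. The median log2 fold change of the 12 was 0.58, against -0.01 for all tested genes. Adgrg6 (GPR126), a receptor needed for myelin formation, averaged 50.1 ± 12.4 CPM in MN1 and 5.35 ± 5.43 CPM in MN1pQdel, a log2 fold change of 3.22 (SE 0.77, edgeR adjusted p = 0.0355), and 4.44 without MN1pQdel replicate 2. Adgrd1 (GPR133) stood at 2.60 ± 0.241 and 0.264 ± 0.195 CPM, a log2 fold change of 3.29 (SE 0.51, edgeR adjusted p = 0.0115), and 4.11 without that library. Adgrl2, latrophilin 2, rose by 1.43 (52.7 ± 3.63 and 19.6 ± 9.72 CPM, edgeR adjusted p = 0.0365) on the log2 scale.

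The Celsr genes, mammalian forms of the planar cell polarity gene flamingo, did not move together. Celsr1 was higher in MN1 by 1.25 (56.4 ± 5.53 and 23.7 ± 10.7 CPM, edgeR adjusted p = 0.0378) and Celsr2 by 1.93 (edgeR adjusted p = 0.0311) on the log2 scale. Celsr3 was lower, at 9.22 ± 2.06 CPM in MN1 and 31.4 ± 10.1 CPM in MN1pQdel, a log2 fold change of -1.77 (edgeR adjusted p = 0.0144). In the 6 leave-one-out fits Adgrd1 passed in 5, Celsr3 in 3, Adgrg6 in 2, and Adgrl2, Celsr1 and Celsr2 in 1. That last fit was the one without MN1pQdel replicate 2, where Celsr1 stood at 1.69, Celsr2 at 2.37 and Adgrl2 at 1.89.

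The other 6 tested family genes did not pass with all libraries. Without MN1pQdel replicate 2, 3 of them did: Adgrb1 at -1.63 (edgeR adjusted p = 0.0179), Adgrg7 at -1.36 (edgeR adjusted p = 0.0132) and Adgrf3 at 2.06 (edgeR adjusted p = 0.0137). With all libraries Adgrb1, a phagocytic receptor for dying cells, had a log2 fold change of -1.41 (edgeR adjusted p = 0.059, and 0.0481 with the replicate block). Adgrg7 stood at -1.05 (edgeR adjusted p = 0.12) and Adgrf3 at 1.37 (edgeR adjusted p = 0.1). Adgrb3, Adgrg2 and Adgrv1 lay at -0.51, -0.11 and -0.09, all at group means under 1 CPM. Adgrf3 and Adgrb1 were low too. Adgrf3 averaged 0.600 CPM in MN1 and 0.228 CPM in MN1pQdel, and Adgrb1 0.396 and 1.06 CPM. The noTD library was nearer to the MN1pQdel mean in 11 of these 12 genes.

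**Figure D5:**
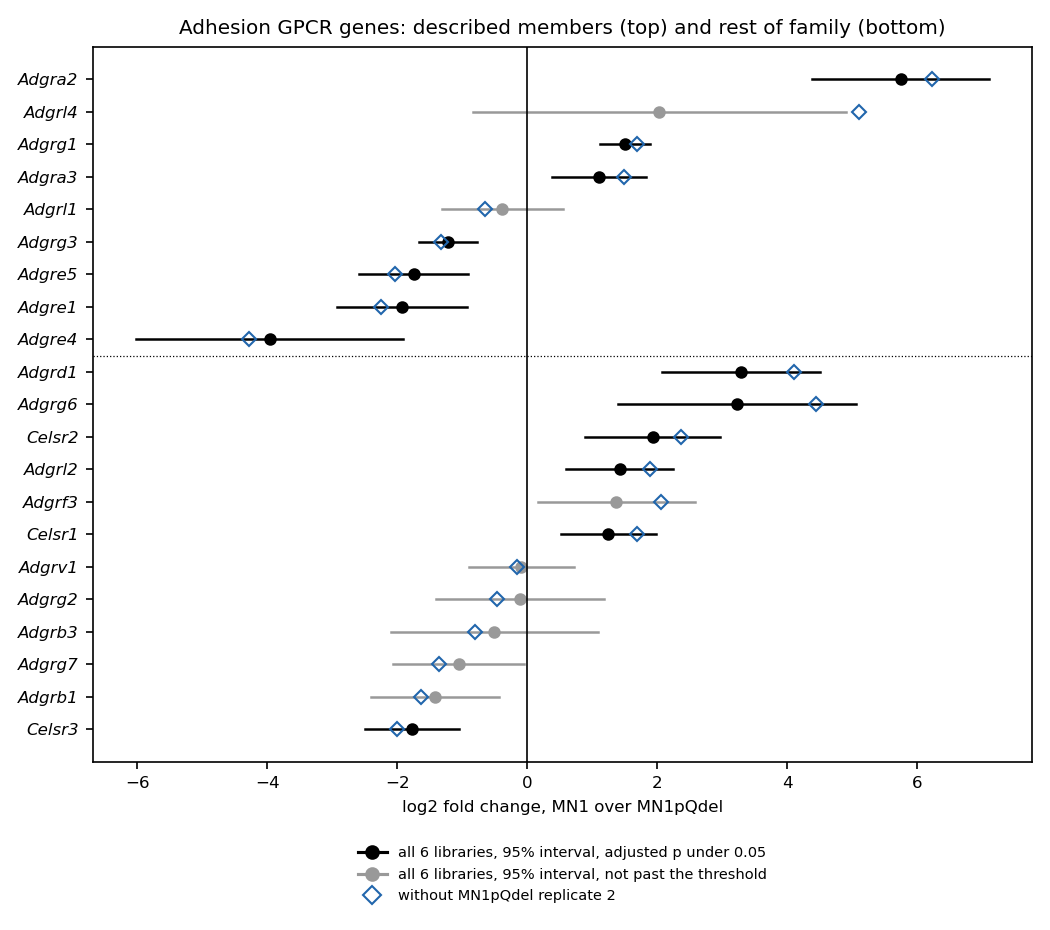
Log2 fold change of MN1 over MN1pQdel (horizontal axis) with its 95% interval for the 9 tested members above the dotted line and 12 other tested adhesion GPCR genes below it; black points passed an adjusted p of 0.05, grey points did not, and open diamonds give the value without MN1pQdel replicate 2. Adgra2 at 5.75 and Adgre4 at -3.96 are the extremes, and the diamond of Adgrl4 at 5.11 lies outside the interval of the fit with all libraries.

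Known ligands and membrane partners of the members were read from a list of 21 genes, of which 15 were tested, 0 were higher and 2 lower, against 6.08% and 11.1% of all genes. The counts were 0 and 5 with the replicate block and 2 and 4 when both replicate 2 libraries were left out. The genes that passed were Cd9, a tetraspanin, at a log2 fold change of -1.99 (SE 0.54, edgeR adjusted p = 0.048), and Reck, the partner of Adgra2 in Wnt7 signalling, at -1.15 (SE 0.18, edgeR adjusted p = 0.0115). Reck stood at 4.84, 5.00 and 4.34 CPM in MN1 and at 10.0, 10.5 and 10.9 CPM in MN1pQdel, in the opposite direction to Adgra2. Wnt7a had 0 counts in every library, and Wnt7b had at most 4 in any. Cd55, the ligand of Adgre5, stood at 127, 39.6 and 69.4 CPM in MN1 and at 392, 96.3 and 442 CPM in MN1pQdel. The Cd55 groups overlapped through MN1pQdel replicate 2, at a log2 fold change of -1.98 (SE 0.64, edgeR adjusted p = 0.0735, and 0.0186 with the block). Without that library it was -2.38 (edgeR adjusted p = 0.00747). Tgm2, a ligand of Adgrg1, had -0.66 (SE 0.38, edgeR adjusted p = 0.244, and 0.0478 with the block). Col3a1, the gene of collagen III, had at most 3 counts in any library. Of the calls without a block, Cd9 passed in 1 of 6 leave-one-out fits and Reck in 3.

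Downstream of the receptors, 28 genes of G proteins, arrestins and downstream effectors were all tested, and 0 were higher and 7 lower in MN1, against 6.08% and 11.1% of all genes. With the replicate block 0 were higher and 15 lower, beside 2022 higher and 2523 lower of all 14808 genes, and without the replicate 2 pair 0 and 13. The list's median log2 fold change was -0.47. Arrb2, a beta-arrestin that ends GPCR signalling, averaged 114 ± 16.7 CPM in MN1 and 416 ± 124 CPM in MN1pQdel, a log2 fold change of -1.87 (SE 0.24, edgeR adjusted p = 0.00742). The other beta-arrestin, Arrb1, stood at 113 ± 8.94 and 184 ± 3.05 CPM, a log2 fold change of -0.70 (SE 0.10, edgeR adjusted p = 0.00937). Arrb1 and Arrb2 passed in 6 of 6 leave-one-out fits. Arhgef1, a signalling protein of leukocytes, fell by 0.95 (edgeR adjusted p = 0.0211, 1 of 6 fits) and Gnai2, the main inhibitory G protein alpha subunit of leukocytes, fell by 0.76 (edgeR adjusted p = 0.0111, 3 of 6 fits) on the log2 scale. Gna12 and Gna13, the alpha subunits through which many adhesion GPCRs signal, had log2 fold changes of -0.04 (95% interval -0.35 to 0.27) and -0.12 (95% interval -0.42 to 0.19), with edgeR adjusted p of 0.849 and 0.531.

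Genes with the most similar profile were found by the root mean square difference of log2 CPM, each centred on its mean over the 7 libraries, among 9865 genes that averaged 5 CPM or more. For Adgrg1 they were Msi2, an RNA-binding protein of stem cells (0.124), Hmgn1 (0.133) and Map7 (0.152). For Adgrg3 they were Gclm (0.0595), Plcb2 (0.0935) and Gpcpd1 (0.106). For Adgre5 they were Prr13 (0.085), Ggh (0.0875) and Fcer1g (0.096), the last a signalling chain of Fc receptors. For Adgre1 they were Cd84 (0.13), Rxra (0.133) and Naaa (0.153), and for Adgra3 Taf4b (0.0787), Tfap4 (0.0838) and Slc19a1 (0.098). These 5 members thus each had genes within 0.2 of their profile on the log2 scale.

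Adgra2, Adgrl4 and Adgre4, which had few counts in some group, had larger differences from their nearest genes. Their own centred profiles were also wider, with root mean squares of 2.78, 2.34 and 2.39. Those of the other members were 0.602 to 1.1. The parts of low counts and of this width in the larger differences were not tested. The nearest to Adgra2 were Ddx4 (0.283), Hoxa10 (0.537) and Cdh3 (0.588), and those to Adgrl4 were Ptk7 (0.484), Tmem176b (0.535) and Icos (0.553). For Adgre4 they were Pla2g7 (0.93), Hal (0.991) and Bcl6 (0.992). Adgrl1 had matches at about the same distance as those of Adgrg1 and Adgre1: Eva1b and Emc9 (both 0.147) and Tdrd7 (0.149). Its own profile was narrower, however, with a root mean square of 0.602 against 0.85 for Adgrg1 and 1.1 for Adgre1. Relative to its width, Adgrl1 was thus matched less closely than they were. Among the members themselves the closest profiles were those of Adgre1 and Adgre5 at 0.177 and of Adgra3 and Adgrg1 at 0.296, while the neighbours Adgrg1 and Adgrg3 differed by 1.46.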

How the data were processed

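The 7 libraries were poly(A)-selected and read as pairs of 150 bases, per the labels' protocols. Estimated counts per gene symbol, not normalised, were deposited by the authors as 1 table; the submitters' processing notes name kallisto, DESeq2 and the GRCm38 build, with versions and index not given in the sources used here. Of its values, 32.5% were not whole (tolerance 1e-06), including some of Adgra3, Adgre5, Adgrg3 and Adgrl1. In 26 rows, with 0.172% of counts, the symbol had become a date; they stayed in the tests unnamed.

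Counts were rounded, filtered with filterByExpr on the transduced groups (14808 genes), scaled by TMM and tested with edgeR 4.0.16 (R 4.3.3; glmQLFit, glmQLFTest) for 3 MN1 against 3 MN1pQdel libraries, with Benjamini-Hochberg adjustment over all genes and a threshold of 0.05. Standard errors were taken from the log2 fold change and its F statistic. The script was tested on simulated counts. CPM are TMM-scaled over 7 libraries; log2 CPM used a prior count of 2. The noTD library entered no test. Coordinates and lengths came from GENCODE M21, promoters from RefSeq (GRCm38.p6).

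The members and lists were chosen with earlier results of these data known, and a list's count describes it only. The naming rule took all members, every other family gene with at least 10 counts in a library, up to 4 passing genes per pathway list, the 3 most abundant per marker list and the 3 most similar genes per member. Adgrb2, Adgrf1, Adgrf2, Adgrf4, Cd55, Tgm2, Col3a1, Wnt7a, Wnt7b, Gna12, Gna13, Plvap, Rgs5, Ebf1, the markers at or near 0 counts and the genes sharing exons were named outside it, after their values were seen. One gene of the chosen set is not reported here. Of 200 list entries, 1 was not analysed here.

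Replicates were distinct (chi-square per gene 44.0 to 355). Deviations from group means correlated at 0.368, 0.259 and 0.321 for libraries of the same number and at -0.282 to -0.0603 otherwise, so an added fit used the replicate number as block; the pairing comes from the data, not the labels. Other alternatives were RLE size factors, library totals, no filter, a filter of 1 CPM in 3 libraries, DESeq2 1.42.0, single libraries left out, the replicate 2 pair left out and, chosen after seeing the data, all exons as gene length.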

Additional observations from a re-analysis of the deposited data

How the results depend on the processing

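The 7 called members remained called, in the same direction, under RLE size factors, library totals, no filter, the 1 CPM filter, DESeq2 and the replicate block. No other member's call changed under these settings. Of 117 log2 fold changes recomputed for 9 members, 95 kept direction and side of the threshold, 20 lost the call, 2 gained it and 0 reversed. The 20 losses all came from leaving out a library, which left that group with 2; members called then ran from 2 to 8. Called genes, 2544 of all tested, were 4351 with DESeq2, 4545 with the block, 5247 without the replicate 2 pair and 506 to 6394 with single libraries left out; the cause was not tested. Members past 2-fold between MN1pQdel and noTD, 0 in all, were 0 to 3 with an MN1pQdel library left out, and those of MN1 were 7 with library totals. The rank of Adgrg1 in MN1pQdel moved from 3 to 4 with all exons as length.

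With 3 libraries a group and a single noTD library, differences from noTD carry no replicate error. Adgre4 had at most 28 counts in an MN1 library, so counting error is large there. Intervals cover the spread between these libraries only.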

Other observations

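Adhesion GPCR genes that were too low to test still had counts in some libraries. Adgra1 had 0 counts in each MN1 library, 21, 0 and 6 in MN1pQdel replicates 1 to 3 and 37 in noTD. Adgrl3 had 6, 7 and 0 counts in MN1, 21, 14 and 7 in MN1pQdel and 12 in noTD. Adgrf5 had 4, 3 and 2 counts in MN1, 5, 9 and 11 in MN1pQdel and 3 in noTD, and Adgrg4 had 0, 6 and 2, then 14, 3 and 5, and 4. The other 4 untested family genes, Adgrb2, Adgrf1, Adgrf2 and Adgrf4, had at most 5 counts in any library.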
